A study of Caenorhabditis elegans with 2 samples.

Results

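The CCT chaperonin subunit genes of Caenorhabditis elegans are the 8 protein-coding genes named cct-1 to cct-8, picked by gene name out of 19973 protein-coding genes in the Ensembl annotation of the WBcel235 (ce11) genome. Binding of the transcription factor ETS-4 to their promoters was measured by chromatin immunoprecipitation and sequencing (ChIP-seq) in whole hermaphrodite late embryos, taken 5 hours after a synchronization by bleaching of eggs. The strain was OP509, genotype unc-119(tm4063) III; wgIs509, in which ETS-4 with a C-terminal GFP-FLAG tag is stably expressed from a transgene. The promoter that drives the transgene is not given in the sources used here. An anti-GFP antibody was used according to the sample descriptions, although the antibody field of the labels reads ets-4, and chromatin was broken by sonication. There were 2 biological replicates of this 1 group, so no comparison between conditions could be made. Whole embryos mix all cell types, so regions bound in a few cells and regions bound weakly in many cannot be told apart. Peak lists hold no expression values, and neither the stage nor the tissue could be checked against marker genes.

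CCT (also TRiC) is the chaperonin of the cytosol. Its paralogous subunits assemble into a double ring that encloses unfolded proteins, among them actin and tubulin, and releases them after cycles of ATP binding and hydrolysis. Prefoldin delivers many of these clients to it. ETS-4 belongs to the ETS family, whose members bind DNA around a GGAA core, and is known in worms for roles in lifespan and axon regeneration. Many worm transcripts receive a spliced leader, so the annotated start of a gene can lie downstream of the place where transcription begins.

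Of the 8 cct genes, 5 had an ETS-4 region of the IDR list at the promoter. They were cct-7, cct-8, cct-6, cct-2 and cct-1, in descending order of signal, and they encode the eta, theta, zeta, beta and alpha subunits. The rule was a summit between 1000 bp upstream and 200 bp downstream of any annotated start of the gene, in the list of 1106 regions that the authors selected by the irreproducible discovery rate (IDR), a filter meant to keep regions found consistently in both replicates. This list held the same regions as the 1106 of highest signal in the list of both replicates pooled, and not every one ranked alike in the replicates. By the same rule 1066 of the 19973 protein-coding genes (5.34%) had such a region. The remaining genes, cct-3, cct-4 and cct-5, encode the gamma, delta and epsilon subunits and had none. A summit that lies between a pair of genes counts for both of them, in the cct genes and in the background alike.

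The sequences under the 5 IDR summits are the stretches of these promoters where the signal peaked, and are given 5′ to 3′ on the strand of the cct gene, from the RefSeq sequence of WBcel235. Each runs 100 bp to either side of the summit in the list of both replicates pooled, for 201 bp in all, except that of cct-6, which ends at the start of the upstream gene and holds 123 bp. They lie at chrV:1871891-1872091 on the plus strand for cct-7, chrIV:1094257-1094457 on the minus strand for cct-8, chrIII:5855895-5856017 on the minus strand for cct-6, chrII:8927354-8927554 on the plus strand for cct-2 and chrII:8185114-8185314 on the plus strand for cct-1. Capitals mark TTCNNGAA, an inverted repeat of the kind found in heat shock elements, which was found in 4 of the 5 sequences.
cct-7: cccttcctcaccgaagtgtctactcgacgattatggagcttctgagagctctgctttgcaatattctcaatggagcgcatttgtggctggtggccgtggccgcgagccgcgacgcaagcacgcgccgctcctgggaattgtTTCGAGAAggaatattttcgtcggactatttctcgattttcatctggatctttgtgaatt
cct-8: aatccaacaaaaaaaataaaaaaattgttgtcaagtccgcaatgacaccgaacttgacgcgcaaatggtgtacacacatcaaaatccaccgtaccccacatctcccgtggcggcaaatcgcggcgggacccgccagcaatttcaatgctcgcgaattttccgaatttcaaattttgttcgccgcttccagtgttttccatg
cct-6: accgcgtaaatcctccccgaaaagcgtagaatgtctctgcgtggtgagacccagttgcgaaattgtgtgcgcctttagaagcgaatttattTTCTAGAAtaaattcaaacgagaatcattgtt
cct-2: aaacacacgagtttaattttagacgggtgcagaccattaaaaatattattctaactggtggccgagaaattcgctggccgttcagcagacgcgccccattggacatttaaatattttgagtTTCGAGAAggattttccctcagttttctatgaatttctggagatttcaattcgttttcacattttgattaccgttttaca
cct-1: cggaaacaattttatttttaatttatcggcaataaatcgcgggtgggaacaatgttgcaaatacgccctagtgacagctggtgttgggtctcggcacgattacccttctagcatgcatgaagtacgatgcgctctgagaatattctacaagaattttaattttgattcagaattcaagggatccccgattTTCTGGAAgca

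Stretches of the 3 genes without an IDR region are given for comparison on the strand of the cct gene, but they are not centred on pooled summits. The window of cct-4 (chrII:8283365-8283565, plus strand) is centred on a weak summit of replicate 1. The window of cct-5 (chrIII:4508271-4508471, minus strand) is centred on a weak summit of replicate 2. The pooled summit of cct-5, 102 bp downstream of the start, was not used as the centre. No list held a summit at the cct-3 promoter, and its window (chrII:2233153-2233353, plus strand) is centred 287 bp upstream of the start, the median distance of the 5 IDR summits.
cct-4: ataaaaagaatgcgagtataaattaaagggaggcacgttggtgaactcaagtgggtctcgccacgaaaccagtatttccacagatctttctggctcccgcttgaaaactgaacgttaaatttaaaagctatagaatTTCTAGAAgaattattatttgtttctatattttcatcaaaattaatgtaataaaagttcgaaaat
cct-5: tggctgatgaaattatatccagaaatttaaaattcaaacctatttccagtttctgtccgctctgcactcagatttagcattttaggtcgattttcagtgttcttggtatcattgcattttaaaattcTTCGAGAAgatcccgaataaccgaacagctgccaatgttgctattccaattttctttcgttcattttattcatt
cct-3: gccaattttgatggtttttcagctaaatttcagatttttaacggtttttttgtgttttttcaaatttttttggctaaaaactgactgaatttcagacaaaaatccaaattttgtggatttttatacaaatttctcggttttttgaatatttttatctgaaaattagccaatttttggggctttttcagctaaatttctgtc

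Signal, the peak caller's own value for each region as the authors deposited it, was highest at cct-7. This gene (WBGene00020391, chrV:1872246-1875505, plus strand) had a region at chrV:1871882-1872053 with a signal of 220.7 in the pooled list, 86.7 in the replicate 1 list and 129.2 in the replicate 2 list. The region ranked 88 among 12348 pooled regions. Among genes ordered by their highest promoter signal, cct-7 ranked 119, and 99.4% of protein-coding genes were lower. Its summit lay 255 bp upstream of the nearest annotated start, between cct-7 and the protein-coding gene next to it. The replicate 2 list held a further, weaker region in the window, with a signal of 19.1 and a summit 57 bp from the start.

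Next in order, cct-8, cct-6 and cct-2 had pooled signals close to each other. At cct-8 (WBGene00021934, chrIV:1087108-1093920, minus strand) the signal was 121.3 in the pooled list, 55.3 in replicate 1 and 63.2 in replicate 2, and the summit was 437 bp upstream. At cct-6 (WBGene00000381, chrIII:5853530-5855687, minus strand) the signal was 116.1 in the pooled list, 30.4 in replicate 1 and 76.7 in replicate 2, and the summit was 308 bp upstream. At cct-2 (WBGene00000378, chrII:8927741-8929815, plus strand) the signal was 114.9 in the pooled list, 38.5 in replicate 1 and 76.6 in replicate 2, with the summit 287 bp upstream. In replicate 1 the values of the 3 genes were spread more widely than in replicate 2. In the pooled list their regions ranked 404, 450 and 459, and the genes ranked 457, 503 and 511. The lowest of the 5 was cct-1 (WBGene00000377, chrII:8185443-8187601, plus strand), with 76.0 in the pooled list, 20.7 in replicate 1 and 54.2 in replicate 2, and a summit 229 bp upstream. It ranked 982 in the pooled list, near the end of the IDR list, whose lowest signal was 71.1, and it ranked 962 among genes.

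**Figure D1:**
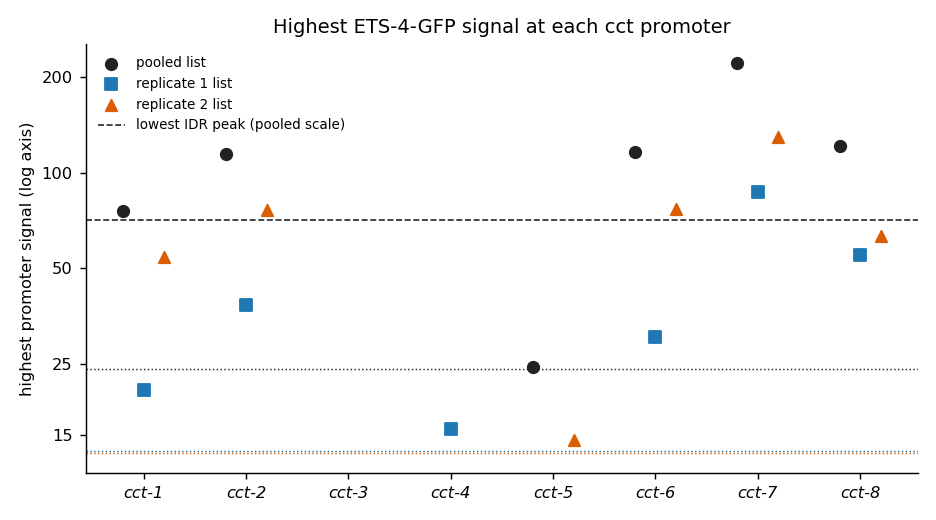
Highest signal of any region at the promoter of each cct gene (log axis), with circles for the pooled list, squares for replicate 1 and triangles for replicate 2. The dashed line is the lowest signal in the IDR list (71.1) and the dotted lines are the lowest signals of the pooled, replicate 1 and replicate 2 lists (24.2, 13.3 and 13.1); 5 pooled circles lie above the dashed line, and cct-3 has no point.

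The 3 genes without an IDR region were weak or empty in every list. No region at all was listed at the promoter of cct-3 (WBGene00018782, chrII:2233540-2243539, plus strand), and the nearest pooled summit was 6386 bp upstream, with a signal of 32.4. For cct-4 (WBGene00000379, chrII:8283667-8285711, plus strand) the replicate 1 list alone held a region, with a signal of 15.6 and a summit 202 bp upstream. Its −log10 q was 0.08, and it ranked 10226 of 15619. For cct-5 (WBGene00000380, chrIII:4499188-4508114, minus strand) the pooled list held a region of signal 24.5 with its summit 102 bp downstream of the start, and −log10 q was 0.02. The replicate 2 list held one of signal 14.4 with its summit 257 bp upstream, with a −log10 q of 0.06, while replicate 1 held none. These values stand near the lowest signals listed, which were 24.2 in the pooled list, 13.3 in replicate 1 and 13.1 in replicate 2. The files give no read counts, so the depth of the libraries is unknown and no limit can be set on what an unlisted promoter may hold.

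In the lists that keep weak regions, the cct genes were counted as follows. A pooled region stood at 6 of the 8 cct promoters (the 5 genes and cct-5), against 26.5% of all protein-coding genes. The replicate 1 list had a region at 6 of the 8 (the 5 genes and cct-4), against 29.5% of all genes. The replicate 2 list had one at 6 of the 8 (the 5 genes and cct-5), against 28.5% of all genes. Over all 8 cct genes, the median share of protein-coding genes with a lower pooled signal was 96.3%, and over all 19973 genes it was 0.0%, because 14689 genes (73.5%) had no pooled region in their window. Among genes with an IDR region, the 5 cct genes had a median signal of 116.1 and the 1066 genes a median of 110.8. The 5 genes were spread widely within the IDR list, from rank 88 at cct-7 to rank 982 at cct-1, and the count of 5 in 8 was above the share of 5.34% over all genes.

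**Figure D2:**
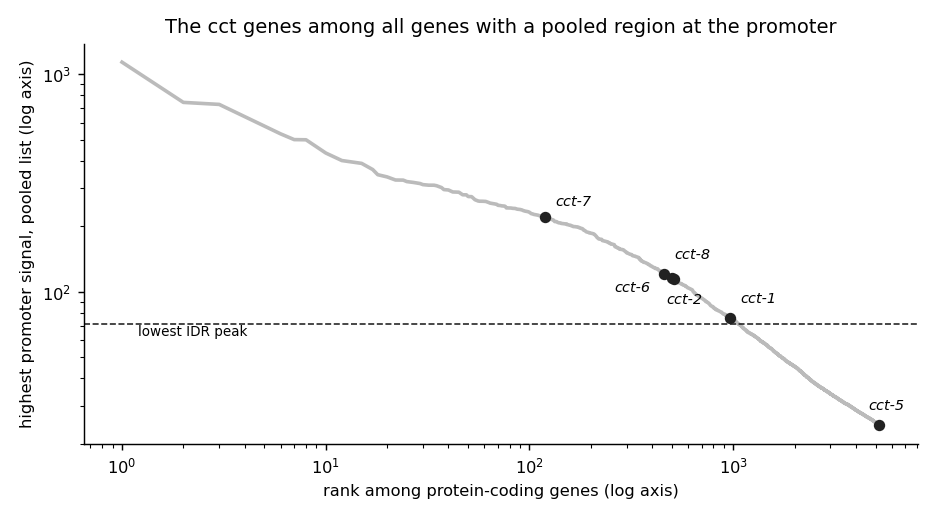
Highest promoter signal in the pooled list (log axis) against rank among protein-coding genes (log axis), as a grey line for all genes with a pooled region and as labelled points for the 6 cct genes that had one. The points of cct-8, cct-6 and cct-2 lie together at ranks 457 to 511, cct-7 lies at rank 119, cct-1 at 962 and cct-5 at 5183, and the dashed line is the lowest IDR signal (71.1).

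Among the 5 cct genes, the replicates differed most at cct-1 and cct-6. Taking the same number of regions of highest signal (1106) from each replicate list alone, replicate 1 had one at 3 of the 8 cct promoters (cct-2, cct-7 and cct-8), against 5.07% of all genes. Replicate 2 had one at 5 of the 8, the same 5 genes as the IDR list, against 5.17% of all genes. The regions of cct-1 and cct-6 ranked 4322 and 1596 in replicate 1, and 573 and 288 in replicate 2. For cct-1 the −log10 q was 0.37 in replicate 1 and 3.13 in replicate 2, and for cct-6 it was 1.44 in replicate 1 and 3.13 in replicate 2.

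The log2 ratio of replicate 2 over replicate 1 signal was 1.39 at cct-1, 1.34 at cct-6, 0.99 at cct-2, 0.57 at cct-7 and 0.19 at cct-8. Over the 1105 IDR regions found in both lists the median ratio was 0.13 with an SD of 0.51, and 95% of regions lay between −0.91 and 1.17. The ratios of cct-1 and cct-6 were thus outside that range, with 98.9% and 98.5% of IDR regions lower. All 5 cct genes were higher in replicate 2, as were 680 of the 1105 regions (61.5%). Whether library depth or quality had a part in this was not tested, since the lists do not give them. With the median ratio removed, both replicate values of cct-7 (86.7 and 118.0) lay above both of cct-8 (55.3 and 57.7). The ranges of the neighbours below overlapped, so cct-8, cct-6 and cct-2 did not differ from the next gene in order beyond the spread of the replicates. Of those 3 neighbouring pairs, the order of cct-2 over cct-1 was the same in both replicates. Genes further apart in the order could differ, as both values of cct-8 lay above both of cct-1 (20.7 and 49.5). The summits of each of the 5 regions in the pooled and replicate lists lay within 5 to 21 bp of each other.

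**Figure D3:**
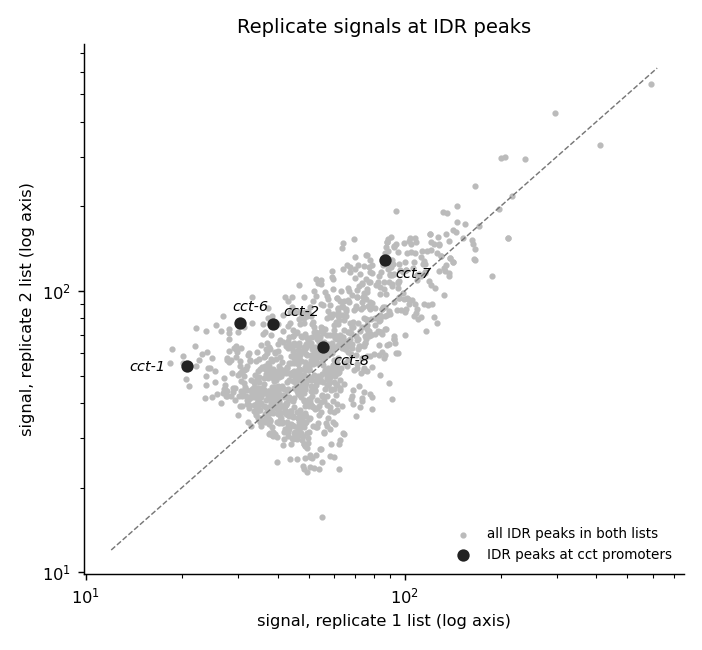
Signal in the replicate 2 list against signal in the replicate 1 list (log axes) for the 1105 IDR regions in both lists (grey) and for those at cct promoters (black, labelled); the dashed line marks equal signal. All 5 cct points lie above the line, with cct-1 and cct-6 at the upper edge of the grey cloud and cct-8 close to the line.

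All 5 IDR summits lay upstream of the cct start, in the gap to the next protein-coding gene, at 229 to 437 bp with a median of 287 bp. Over the 1066 genes with an IDR region the median distance was 247 bp, with quartiles of 138 and 438 bp, and 1015 of them had the summit upstream. The cct summits were therefore at common distances, and 309 of the 1066 genes (29.0%) had theirs between 229 and 437 bp. The annotated leaders of the cct genes are short. In 7 of the 8 the longest annotated leader is at most 9 nucleotides, and in cct-5 it is 30. In all protein-coding genes the median longest leader is 17 nucleotides, and 8109 genes (40.6%) have at most 9. The distances are thus counted from points at or near the start codon, and the places where transcription begins were not measured.

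The 8 cct genes are spread over the genome, with 4 on chromosome II, 2 on III and 1 each on IV and V, and no pair of them shares a promoter. Each of the 8 stands head-to-head with its upstream neighbour, which is transcribed the other way from a start across the intergenic gap. Of all protein-coding genes, 42.2% are placed like this. The gaps of the cct genes run from 330 bp at cct-6 to 1189 bp at cct-2. IDR regions were more frequent in this class, with 8.46% of 8421 head-to-head genes against 2.89% of 10156 tandem genes, whose upstream neighbour runs the same way; no cct gene is tandem. Among the 2708 head-to-head genes with a gap of 330 to 1189 bp, 14.3% had an IDR region. The 5 of 8 cct genes thus stand against a background of 14.3% when the arrangement and gap are alike, and of 5.34% over all genes.

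**Figure D4:**
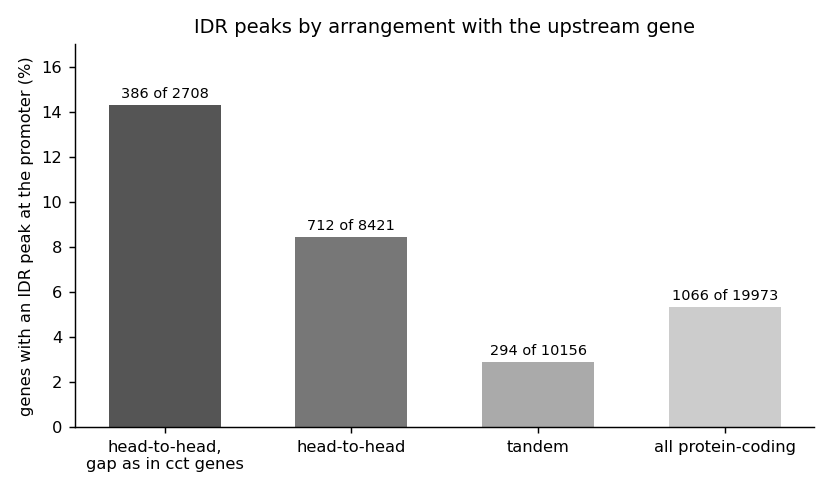
Share of protein-coding genes with an IDR region at the promoter (percent, bars from 0), for head-to-head genes with a gap in the range of the cct genes, all head-to-head genes, tandem genes and all protein-coding genes, with the counts above the bars. The shares are 14.3%, 8.46%, 2.89% and 5.34%, and all 8 cct genes belong to the leftmost class.

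Each of the 5 IDR summits also lay in the promoter window of the opposite gene, so that it could be given to neither gene alone. At cct-7 the opposite gene was T10B5.4, an aralkylamine N-acetyltransferase by its RefSeq name, with its start 184 bp from the summit, against 255 bp for cct-7. A noncoding RNA gene, T10B5.13, also starts 11 bp from that summit. At cct-8 it was Y55F3AR.2, a thioredoxin domain protein, at 184 bp against 437 bp. At cct-6 it was alh-9, an aldehyde dehydrogenase homolog, at 23 bp against 308 bp. At cct-1 it was mig-5, a homolog of Dishevelled, which transduces Wnt signals, at 191 bp against 229 bp. At cct-2 the order was turned round, and the opposite gene B0457.2 started 903 bp from the summit, against 287 bp for cct-2. In 4 of the 5 cases the summit was thus nearer to the start of the opposite gene than to that of the cct gene. Sharing was common among such genes, since in 529 of the 712 head-to-head genes with an IDR region (74.3%) the summit was also in the window of the opposite gene. The opposite genes of the other three were F54A3.6 at cct-3 (gap 1069 bp), nst-1, a homolog of the nucleolar GTPase GNL3, at cct-4 (458 bp), and F25F2.1 at cct-5 (740 bp). The weak pooled region of cct-5 was also in the window of F25F2.1, 843 bp from its start.

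**Figure D5:**
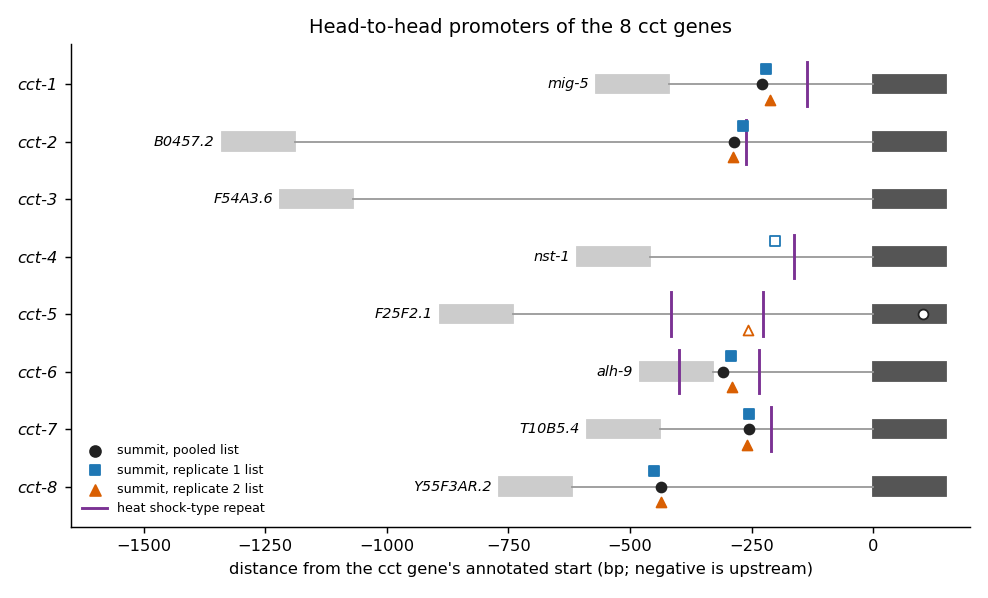
Promoters of the 8 cct genes by distance from the annotated start (bp, negative is upstream), with the first part of the cct gene in dark grey, the opposite gene in light grey and its name beside it. Circles, squares and triangles are the summits in the pooled, replicate 1 and replicate 2 lists, open where the gene has no IDR region, and the vertical bars are TTCNNGAA repeats within 500 bp upstream; in the 5 genes with an IDR region the 3 summits fall within 5 to 21 bp.

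cct-6 lies in a stretch of chromosome III that is dense in IDR regions. Between 5 and 6 Mb there are 60 IDR summits, against 32 between 4 and 5 Mb, where cct-5 lies. Of the 236 protein-coding genes between 5 and 6 Mb, 53 (22.5%) had an IDR region at the promoter, cct-6 among them. A further and stronger region stood at the other end of cct-6. It lay at chrIII:5853319-5853524, with its summit 122 bp past the annotated end of the gene, and its signal was 233.8 in the pooled list, 87.5 in replicate 1 and 143.7 in replicate 2. This region is in the promoter window of ddx-23, a DEAD-box helicase gene, and its signal was above that of the cct-6 promoter in each of the 3 lists. An IDR region also followed cct-7, with a summit 317 bp past its end, at a signal of 87.9 in the pooled list, 48.0 in replicate 1 and 47.7 in replicate 2, and in no promoter window.

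Inside the gene bodies, outside the promoter windows of the cct genes, no IDR region was found in any of the 8. The pooled list held 6 weak regions in the body of cct-5, 5 of them in introns, with signals of 25.2 to 39.1. Each was above the pooled signal at the cct-5 promoter (24.5). The regions at chrIII:4505911-4506314, chrIII:4506147-4506550 and chrIII:4506367-4506770 overlapped in turn, so the entries are not all separate sites. The bodies of cct-6 and cct-8 held 1 weak region each, at 25.5 and 27.6, and those of cct-1, cct-2, cct-3, cct-4 and cct-7 held none. A weak region also lay 729 bp past the end of cct-1 (30.9).

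The 201 bp around each summit, which at cct-6 reach into the opposite gene, were searched for 10 short motifs on both strands. Beside each count stand the shares of all 1106 IDR windows and of windows of the same length centred 287 bp upstream of all genes. Of the 1106 IDR regions, 763 had the summit in a promoter window of a protein-coding gene, so the IDR windows also include sequence outside promoters. GGAA, the ETS core, was found at 5 of the 5 cct genes with an IDR region, in 81.6% of IDR windows and in 85.7% of upstream windows. Within 50 bp of the summit it remained at cct-2 and cct-7. The printed sequence of cct-6, which stops at alh-9, holds no GGAA on either strand. The count there comes from the part of the window that reaches into alh-9. The longer ETS forms CCGGAA and CCGGAAGT were found at none of the 5, in 5.79% and 0.181% of IDR windows and in 6.87% and 0.446% of upstream windows. CCGGAA did occur around the weak pooled summit of cct-5, and within 250 bp of the summit it occurred at cct-8 too. GAGAGA was found at none of the 5, although it was in 39.4% of IDR windows, as against 12.2% of upstream windows. GACGCAG was found at none of the 5, in 15.2% of IDR windows and in 2.46% of upstream windows. CCGCCC was found at none of the 5, in 13.3% of IDR windows and in 3.83% of upstream windows. These last 3 motifs were each more frequent in IDR windows than in upstream windows. At such shares, 5 windows are too few to read their absence as a trait of the cct genes. CGGAT (13.8% of IDR and 15.2% of upstream windows), TGATAA (7.32% and 19.8%) and CACGTG (4.52% and 3.16%) were also found at none of the 5. Within 250 bp of the summit, CGGAT did occur at cct-8. The absence of these letters says nothing about any factor.

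TTCNNGAA was found at 4 of the 5 (cct-1, cct-2, cct-6 and cct-7), in 10.0% of all IDR windows and in 13.1% of upstream windows of all genes. The heat shock transcription factor HSF-1 is known to bind repeats of the unit GAA in alternating orientation, and this motif holds a pair of them. The site was TTCGAGAA at cct-7 and at cct-2, with its centre 44.5 and 24.5 bp from the summit, TTCTAGAA at cct-6 (72.5 bp) and TTCTGGAA at cct-1 (93.5 bp). Each of these sites lay between the summit and the cct start, so no pooled summit stood on the repeat itself, and within 50 bp of the summit it remained at cct-2 and cct-7. At cct-6 a further site, TTCCCGAA, lay 90.5 bp from the summit on the other side, inside alh-9. The windows of cct-4 and cct-5 held the repeat as well, as the printed sequences show, although neither gene had an IDR region. For cct-5 this holds for the window on the replicate 2 summit. Around its pooled summit the repeat was not found, even within 250 bp. Counted over the 500 bp upstream of the gene, a window chosen after the data were seen, the repeat stood at 6 of the 8 cct genes, against 29.1% of all genes, 33.8% of genes with an IDR region and 30.7% of head-to-head genes with a gap like those of the cct genes. The narrower form TTCNAGAA, searched on both strands and also chosen after the data were seen, was at the same 6 genes, against 19.7%, 22.1% and 20.2%. The 6 genes were cct-1, cct-2, cct-4, cct-5, cct-6 and cct-7. The repeat was therefore present with and without an IDR region. It was lacking at cct-8, which had an IDR region, and at cct-3, which had no region in any list.

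The same windows also differed in base composition. GC content was 51.2% at cct-7, 46.3% at cct-8, 41.3% at cct-1, 39.3% at cct-6 and 37.8% at cct-2, and 34.3% at cct-5, 32.3% at cct-4 and 26.9% at cct-3. The windows of the last 3 were centred on weak or absent regions, as described above. In these windows the groups did not overlap. The median was 41.3% with an IDR region (mean 43.2% ± 5.5, SD across the 5 genes) and 32.3% without one (mean 31.2% ± 3.9, SD across the 3 genes). The windows were placed by different rules with and without an IDR region, and GC content at other placements is not given here. All 1106 IDR windows had a median of 44.8% (SD 7.7), and all 12348 pooled windows, weak regions among them, had 39.8% (SD 9.0). Upstream windows of all 19973 genes had 33.8% (SD 6.7). In the windows used, GC content was thus higher with an IDR region than without, among the cct genes as between IDR and upstream windows over the genome. The part of GC content in the result was not tested.

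Genes of CCT clients, of prefoldin and of other folding factors were looked up in 5 lists of 44 genes in all, and 5 of the 44 (11.4%) had an IDR region, against 5 of 8 cct genes and 5.34% of all genes. Of the 6 prefoldin subunit genes, pfd-5 and pfd-4 had one, at pooled signals of 207.7 (91.6 in replicate 1 and 114.2 in replicate 2) and 174.6 (74.5 and 95.9). In the pooled list these signals were above those of each cct gene but cct-7 (220.7), and in replicate 1 pfd-5 was also above cct-7 (86.7). pfd-1 had a pooled region under the IDR level, at 68.2. Of 11 further genes tied to protein folding, which include the heat shock factor gene hsf-1, 2 had an IDR region. They were uri-1, which encodes a prefoldin-like protein, at 165.2, and icd-2, a subunit of the nascent polypeptide-associated complex, at 91.9, and 9 of the 11 had a pooled region, against 26.5% of all genes. The pooled summits of pfd-5, pfd-4, pfd-1 and uri-1 also lay in promoter windows of other protein-coding genes, so they cannot be given to a single gene. That of icd-2 did not.

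Among the client genes, 1 of 16 tubulin genes and 0 of 5 actin genes had an IDR region. The alpha-tubulin gene tba-2 had a pooled signal of 104.3 (45.3 in replicate 1 and 59.3 in replicate 2), and a pooled region under the IDR level stood at the beta-tubulin gene tbb-1 (49.2) and the gamma-tubulin gene tbg-1 (36.3). The summits of tbb-1 and tbg-1 were each shared with another gene, and that of tba-2 was not. All 5 actin genes had a pooled region, against 26.5% of all genes, with signals from 35.0 at act-5 to 59.7 at act-4. Of 6 tubulin folding cofactor genes none had an IDR region, and tbcd-1 had a pooled one at 65.8. The median share of genes with a lower pooled signal was 96.3% for the 8 cct genes, 47.2% for prefoldin, 0.0% for tubulins, 89.5% for actins, 0.0% for tubulin cofactors and 91.4% for the further folding genes. These shares are descriptions of lists of unequal size, and the differences between lists were not tested.

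Genes of unlike annotation had promoter signals nearest to those of the cct genes. Next to cct-7 in the order of genes stood fib-1, which encodes the nucleolar methyltransferase fibrillarin, with mut-15, at 221.2 above it, and app-1, an aminopeptidase gene, at 220.3 below it. Around cct-8 stood T09F3.4, a mitochondrial ribosomal protein gene (121.4), and ZC506.1, a mannosidase gene (121.2). By their RefSeq products none of these is a chaperone. Around cct-6 stood plrg-1, a splicing factor gene (116.2), and scc-2, which encodes the cohesin loader (115.7). Around cct-2 stood wrt-3 (114.9) and a region shared by the proteasome subunit gene pas-3 and by use-1 (114.8). Around cct-1 stood the nucleoporin gene npp-1 and a region shared by ung-1 and Y56A3A.31, all at 76.0. In replicate 1, cct-1 had 20.7, against 35.0 at npp-1 and 31.1 at ung-1. The signals of cct-2 were 38.5 in replicate 1 and 76.6 in replicate 2, against 73.5 and 40.5 at wrt-3. At cct-6 replicate 1 gave 30.4, against 50.9 at plrg-1 and 40.7 at scc-2. In replicates 1 and 2, cct-7 had 86.7 and 129.2, against 101.2 and 119.2 at fib-1 and 109.0 in both at app-1. The likeness in pooled signal thus did not hold in each replicate for cct-1, cct-2, cct-6 and cct-7. For cct-8 (55.3 and 63.2) the values were close to those of T09F3.4 (57.7 and 61.2) and ZC506.1 (54.7 and 62.7). The ets-4 gene itself (chrX:6518883-6522667, plus strand) had no region at its promoter in any of the 4 lists.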

How the data were processed

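Binding was read from peak lists of 2 biological replicates in the ce11 build, deposited in narrowPeak layout. Per the deposited readme texts, the authors made each replicate list with a control, the pooled list from both replicates, and the IDR list from these; weak regions were kept as input for IDR. The control was not used here, and for the aligner, the peak caller and the IDR threshold the names and settings were not given in the sources used here. The value used is the signal of column 7 as the authors deposited it, for ranking within a list; column 9, as deposited, holds −log10 q (a q-value for each region). The IDR list equals the 1106 pooled regions of highest signal (8.96% of 12348).

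The ce11 summits were joined to starts of protein-coding transcripts in Ensembl release 115 with Python 3.11.15 and numpy 2.4.6, and figures were drawn with matplotlib 3.10.9. Windows ran 1000 bp upstream to 200 bp downstream of each start. Sequence and gene products came from RefSeq's WBcel235. The joining and motif steps were checked on simulated data. No test was run: there is 1 group, and the genes, gene lists and motifs were chosen with earlier results of these data known. Each count stands beside the same count over all genes. Named were the 8 cct genes, genes sharing their summits, the genes next in rank, listed genes with an IDR region and ets-4; the listed genes with a pooled region alone, T10B5.13, ddx-23 and the opposite genes of cct-3 and cct-4 were added after their values were seen. Alternatives were other windows, overlap in place of summits, single starts, single replicates, stricter and looser lists, and motif windows of 50 and 250 bp. The ce10 lists were not used.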

Additional observations from a re-analysis of the deposited data

How the results depend on the processing

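The count of cct genes with an IDR region stayed at 5 with windows of 500/100 bp (4.17% of all genes) and 2000/200 bp (6.76%), with overlap in place of summits (5.71%), with the most upstream start alone (5.01%) and with the top 2000 pooled regions (8.35%). It was 4 in the upper 50% of the IDR list (2.97%), where cct-1 dropped out. Leaving out a replicate gave 3 to 5, and the lower count, without replicate 2, lacked cct-1 and cct-6. The median share of genes with a lower signal ran from 90.0% to 97.2% when a replicate was left out, with 90.0% without replicate 2, and from 95.4% to 97.1% under the other alternatives. The causes were not tested. Summits were shared with another gene at 4 cct genes with the 500/100 bp window and at 6 otherwise. Of the motif counts under the alternatives 31 were within the set margin of the main count and 9 were not. Where a region remained, signals of single genes differed from the pooled ones in the replicate lists alone, whose scale is another. With the 500/100 bp window cct-5 had no pooled region, since its summit lay 102 bp downstream of the start. No paired analysis was possible because there is 1 group. Without read counts, depth sets no stated limit, and each list has its own scale of signal, so a replicate ratio is read only against that of all IDR regions.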
